A study of Mus musculus with 4 samples.

Results

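Mesenchymal cells of injured tibial muscle were compared between 3 and 1 days post injury (dpi) across all genes, by single-cell RNA sequencing. The cells were selected on measured values. A cell was kept when mitochondrial transcripts made up at most 10% of its unique molecular identifiers (UMIs, each standing for 1 captured transcript), when *Col1a1*, *Col1a2*, *Col3a1* and *Dcn* together made up at least 0.5% of them, and when it held 0 UMIs of *Ptprc* (pan-leukocyte CD45), *Cdh5* (endothelial VE-cadherin) and *Pax7* (muscle satellite cells). This kept 3903 of 11722 cells at 1 dpi (33.3%) and 6945 of 15160 at 3 dpi (45.8%), 10848 of the 26882 cells of these libraries and of the 62665 cells in the series. All mice were *Nse-Bmp4* animals on the C57BL/6 background, 6 to 8 weeks old, in which the rat neuron specific enolase promoter (*Nse*) drives a *Bmp4* transgene, and cardiotoxin was injected into the tibial muscle to injure it. The groups were the muscle at 1 dpi and at 3 dpi, with Uninjured and 7 dpi muscle of the same genotype used here for reference only, and every group carried the transgene. Each group was a single library of 3 pooled muscles, so a difference between time points and a difference between libraries cannot be told apart, no test between them was possible, and all intervals below are 95% intervals of counting error only.

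Mesenchymal cells of skeletal muscle, among them the fibro-adipogenic progenitors, are stromal cells that lie between the fibres and build the extracellular matrix. After injury they take up signals from infiltrating leukocytes, leave quiescence, divide, and lay down a provisional matrix, and some of them acquire the contractile proteins of myofibroblasts. In muscle exposed to excess bone morphogenetic protein (BMP) such cells can go on to form cartilage and ectopic bone, a process called heterotopic ossification.

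The selected cells had the marker profile of their label. Over 7 mesenchymal genes that took no part in the selection (*Pdgfra*, *Prrx1*, *Lum*, *Col6a1*, *Col6a2*, *Sparc* and *Serping1*), the summed level was 9631 CPM (a gene's share of all UMIs pooled from the kept cells, times 1000000) at 1 dpi and 12660 at 3 dpi, against 1481 and 3463 in cells with a *Ptprc* UMI. *Sparc* alone made up 4801 and 9002 CPM of the sums in the kept cells, so the higher sum at 3 dpi does not describe the other genes. Markers of other cells were low but present. The 12 immune markers summed to 294 and 251 CPM, with *S100a9* highest and none at 0, against 29450 and 17740 in the *Ptprc* cells. At 1 and 3 dpi the sums were 4.30 and 6.05 CPM for 7 endothelial markers (*Emcn* at 0 at 1 dpi), 43.8 and 38.3 for 8 of pericytes and smooth muscle, 61.4 and 36.3 for 5 of Schwann cells, and 11.5 and 15.2 for 7 of muscle fibres. The myogenic markers (6 genes) summed to 0.447 CPM with *Myog* at 0 at 1 dpi and to 12.1 at 3 dpi, the keratinocyte markers *Krt5* and *Krt14* were both at 0 at 1 dpi and summed to 11.8 at 3 dpi, and the 5 erythroid markers were at 7.04 (*Alas2* at 0) and 30.1. Cells with at least 10 UMIs of any one of these lists, or of the osteoblast genes *Bglap* and *Bglap2*, numbered 108 at 1 dpi and 253 at 3 dpi. Values without them are given for some of the genes that they affect. At least 2 UMIs of other cells' markers were in 70.7% of kept cells at 1 dpi and 42.1% at 3 dpi.

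The cells of the 2 libraries differed in depth. The kept cells held 35817823 UMIs at 1 dpi and 67090142 at 3 dpi, with medians of 7753 (quartiles 4732.5 and 11252) and 5515 (2781 and 12775) per cell, so that 3 dpi combined many shallow cells with a tail of very deep ones. The *Ptprc* cells used for comparison had medians of 5320 and 4008.5 UMIs. The libraries at 1 and 3 dpi shared 49 barcodes, 8 of them among kept cells in both.

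The genes that chose the cells are given as a description only. From 1 to 3 dpi *Col1a1* stood at 2042 and 4310.2 CPM, *Col1a2* at 3613 and 6104, *Col3a1* at 4499.7 and 8967, and *Dcn* (decorin) at 13423 and 7673. Just inside the threshold, with 0.5 to 0.6% of UMIs from these 4 genes, lay 82 cells at 1 dpi and 45 at 3 dpi, and just outside it, at 0.4 to 0.5%, 48 and 41. *Prrx1*, a limb mesenchyme transcription factor, was at 378 CPM inside and 382 outside at 1 dpi, and at 293 and 184 at 3 dpi.

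Of 13252 genes tested (at least 50 UMIs in 1 of the 2 libraries, without the genes used in the selection, mitochondrial genes and sex-linked controls), 935 (7.06%) were at least 2-fold higher at 3 dpi and 829 (6.26%) at least 2-fold lower, and these shares are the background for the gene groups below. The larger differences lay mostly on the higher side. At least 4-fold, 352 genes were higher and 48 lower, and at least 8-fold 139 and 8. The minimum of 50 UMIs is a count, and the kept cells held 67090142 UMIs at 3 dpi against 35817823 at 1 dpi. A weak gene could thus enter at a lower CPM through 3 dpi, and the part of this in the split was not tested. Genes given below at under 1 CPM at 1 dpi held fewer than 50 UMIs there and entered only through 3 dpi. Among them are *Plin1*, *Cemip*, *Acan* and *Col7a1*. The median gene had a log2 ratio of -0.07. The split between higher and lower genes depended on how cells were weighted: 935 against 829 genes is 53% higher, whereas the mean over cells of each cell's CPM, which counts a shallow cell as much as a deep one, gave 745 against 222 (77.0%), and thinning each cell to 2000 UMIs gave 429 against 146 of 10568 genes (74.6%). The 745 and 222 of 13252 genes are the background for list counts given below as the mean over cells.

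**Figure D1:**
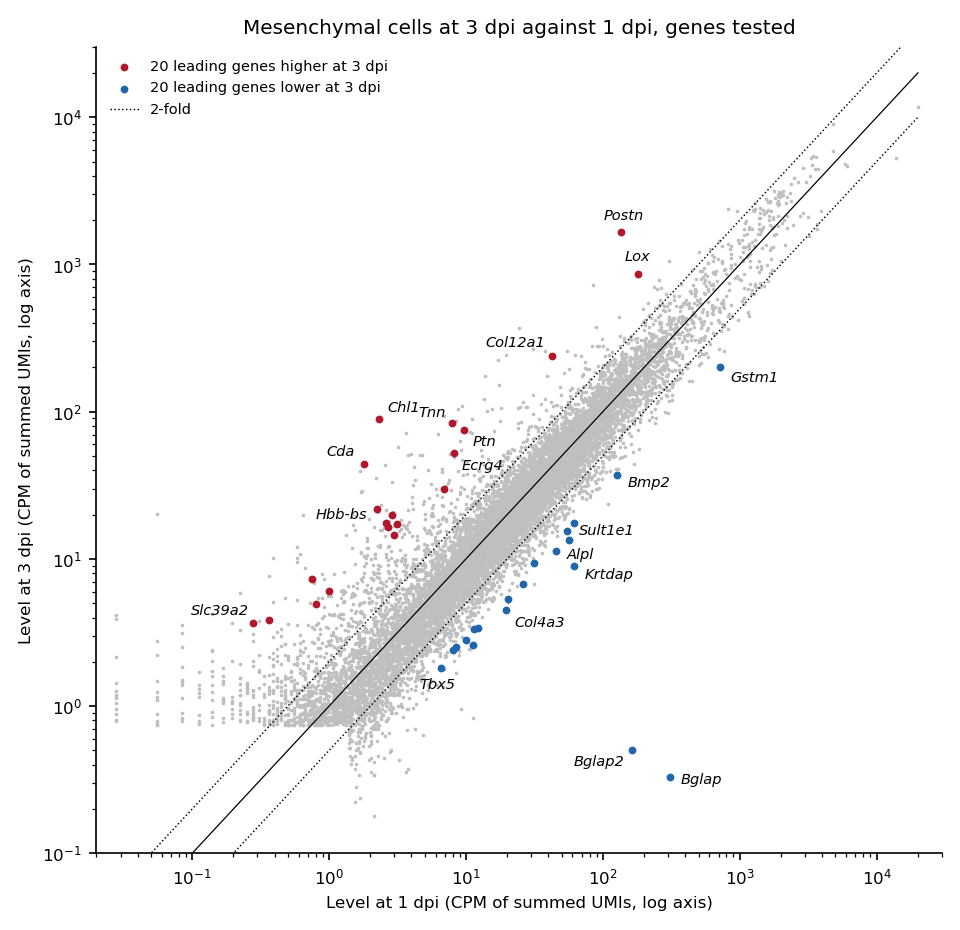
Level of each gene tested in mesenchymal cells at 1 dpi (x axis) and 3 dpi (y axis), as CPM of summed UMIs on log axes, for genes with a UMI in both libraries. The solid line marks equal levels and the dotted lines 2-fold. *Postn* (135 and 1654 CPM) stands far above the lines at a high level, and *Bglap* and *Bglap2* lie far below them.

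The genes that led the higher side, by size of the ratio among genes with at least 200 UMIs in the higher library, 10 in the lower and a level at least 3-fold above the *Ptprc* cells, included a set of matrix genes. *Postn* (periostin, a matricellular protein of wounds and periosteum, chromosome 3, 54361109 to 54391037, GRCm38) had 4835 UMIs at 1 dpi and 110962 at 3 dpi, which is 135 and 1654 CPM, 12.3-fold higher (11.9 to 12.6). After thinning every cell to 2000 UMIs, which left out 320 shallower cells at 1 dpi and 1171 at 3 dpi, 5.94% of cells carried a *Postn* UMI at 1 dpi (exact binomial interval 5.19 to 6.77) and 49.1% (47.8 to 50.4) at 3 dpi. Before thinning the shares were 12.5% and 55.3%, and the thinned *Ptprc* cells had 1.32% and 15.01%. *Postn* was thus seen in few cells at 1 dpi, and at 3 dpi in about as many cells as lacked it. *Lox* (lysyl oxidase, which crosslinks collagen and elastin) had 179 and 864 CPM, 4.82-fold higher (4.696 to 4.95). *Col12a1*, a collagen of fibril surfaces, had 42.2 and 240.4 CPM (5.696-fold, 5.403 to 6.01). The matricellular tenascin *Tnn* had 7.87 and 84.1 CPM (10.7-fold, 9.47 to 12.1) and *Lrrc15*, a membrane protein of activated fibroblasts, 2.904 and 19.9 (6.87-fold).

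Almost all *Tnn* at 1 dpi came from a handful of cells. The 10 cells richest in it held 99.6% of its 1 dpi UMIs but 10.96% at 3 dpi, and 281 of its 282 UMIs at 1 dpi lay in 13 cells with at least 10 UMIs of the osteoblast genes *Bglap* and *Bglap2*. Without the cells that held 10 or more marker UMIs, *Tnn* at 1 dpi was left with a single UMI, and the ratios of *Lrrc15* and *Postn* became 40.4 and 15.9.

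Other leading genes act in adhesion, sensing and signalling. *Chl1* (a cell adhesion molecule of the L1 family, chromosome 6, 103510586 to 103750211) had the largest ratio among genes with at least 10 UMIs in the lower library: 83 UMIs at 1 dpi and 6013 at 3 dpi, 2.32 and 89.6 CPM, 38.7-fold higher (31.1 to 48.6). It was carried by 0.223% and 7.69% of thinned cells (0.999% and 15.3% unthinned), against 0.0942% and 2.21% of *Ptprc* cells, so even at 3 dpi most cells showed none. *Ptn* (pleiotrophin, a secreted heparin-binding growth factor) had 9.69 and 75.4 CPM, 7.79-fold. *Ecrg4*, which encodes a secreted peptide precursor, had 8.12 and 52.03 CPM, 6.405-fold. *Masp1*, a serine protease of the lectin pathway of complement, had 0.754 and 7.29 CPM, 9.67-fold. *Piezo2* (a mechanically gated cation channel), the axon guidance gene *Draxin* and the connexin *Gjb5* were 6.06-, 6.04- and 5.51-fold higher, at 16.4, 6.07 and 17.4 CPM at 3 dpi.

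Another set serves metabolism and transport. *Cda* (cytidine deaminase of pyrimidine salvage) had 1.79 CPM at 1 dpi and 44.2 at 3 dpi, 24.7-fold higher (19.3 to 32.2). The zinc transporter *Slc39a2* had 0.279 and 3.65 CPM (13.1-fold) and the cationic amino acid transporter *Slc7a2* 2.23 and 21.9 (9.82-fold). *Gldc* (glycine decarboxylase), the metalloreductase *Steap1* and *Sel1l3* were 4.84-, 4.303- and 6.11-fold higher. The remaining leading genes were *S100a2* (3.85 CPM at 3 dpi, 10.6-fold) and the globin *Hbb-bs*. *Hbb-bs* belonged to few cells: 10 cells held 93.2% of its UMIs at 3 dpi, and without the cells of 10 or more marker UMIs its ratio was 0.4998 in place of 6.68.

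**Figure D2:**
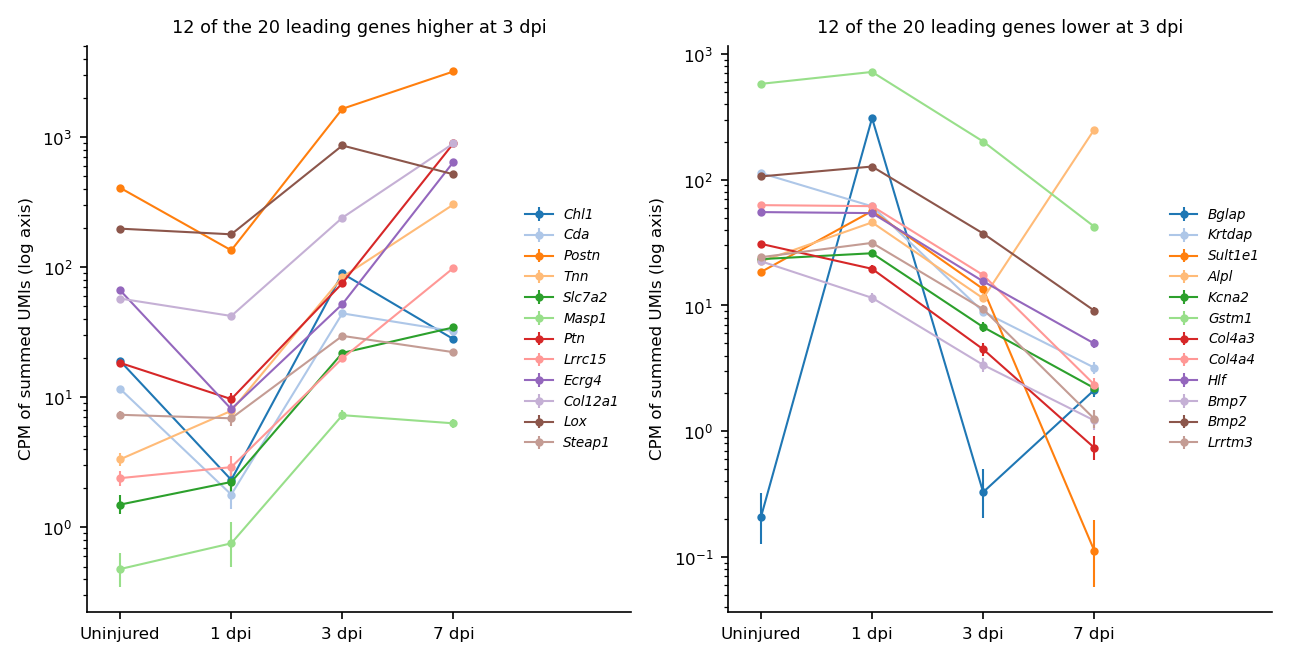
CPM of summed UMIs in mesenchymal cells of the 4 libraries (log axis) for 12 of the 20 leading genes in each direction, with bars for the 95% counting interval. *Chl1* was highest at 3 dpi, *Tnn* and *Ptn* were higher again at 7 dpi, and the genes lower at 3 dpi were lower still at 7 dpi, apart from *Alpl* and *Bglap*.

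The 4 libraries placed these genes on different courses. *Chl1* had 19.01, 2.32, 89.6 and 28.01 CPM in Uninjured, 1, 3 and 7 dpi cells, and *Cda* 11.6, 1.79, 44.2 and 32.2, so that both were lowest at 1 dpi. *Postn* had 408, 135, 1654 and 3203 CPM, also lowest at 1 dpi but highest at 7 dpi. *Lox*, with 198, 179, 864 and 518, and *Masp1*, with 0.478, 0.754, 7.29 and 6.31, were highest at 3 dpi, whereas *Ptn* reached 897 CPM and *Tnn* 304 at 7 dpi.

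Genes with large ratios that stood less than 3-fold above the *Ptprc* cells are listed apart. They were *Plxna4* (30.9-fold, 0.642 to 19.8 CPM, a semaphorin co-receptor), *Crabp2* (26.1-fold, a retinoic acid binding protein), *Ddah1* (23.5-fold), *Car12* (20.98-fold, a carbonic anhydrase), *Barx2* (20.5-fold, a homeobox gene), *Prg2* (17.5-fold, an eosinophil granule protein) and 4 genes of cell division, *Cenpa*, *Cdc20*, *Depdc1a* and *Ccnb2* (16.97- to 19.5-fold). *Prg2* lay to 94.9% in 10 cells at 3 dpi. However, the *Ptprc* cells were not pure leukocytes, since 585 of 5696 at 1 dpi and 803 of 5230 at 3 dpi also reached 0.5% of UMIs from the 4 selection genes. In the *Ptprc* cells below that share, *Plxna4*, *Crabp2*, *Ddah1*, *Car12* and *Barx2* were at 0.634, 0.272, 1.45, 0.997 and 0.997 CPM at 3 dpi, while *Cenpa* and *Cdc20* were at 96.2 and 40.6.

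Against these *Ptprc* cells, a comparison chosen after the values were seen, the 20 leading higher genes also took in *Cthrc1* (a secreted protein of activated fibroblasts, 24.5 to 371 CPM, 15.1-fold, 14.1 to 16.2), *Ltbp2* (a microfibril protein, 13.7 to 175, 12.8-fold), *Fbn2* (fibrillin-2, 1.48 to 20.1, 13.6-fold) and *P4ha3* (a collagen prolyl hydroxylase subunit, 3.99 to 51.5, 12.9-fold). *Acta2* (smooth muscle actin, 17.1 to 225, 13.2-fold), *Tpm2* (12.4-fold), *Ccn4* (10.6-fold), *Rgs4* (16.4-fold) and *Ptprn* (11.2-fold) were the others.

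On the lower side, *Bglap* and *Bglap2* (osteocalcin, made by mature osteoblasts) had by far the largest ratios but belonged to 13 cells. *Bglap* had 11067 UMIs at 1 dpi and 22 at 3 dpi, 309 and 0.328 CPM, and *Bglap2* 163 and 0.507 CPM. The 13 cells with at least 10 UMIs of this near-identical pair held 11029 of the *Bglap* and 5798 of the *Bglap2* UMIs at 1 dpi, and 1 such cell was present at 3 dpi. The same 13 cells held 246 of 345 UMIs of the bone sialoprotein gene *Ibsp*, 261 of 321 of *Col11a2* and 578 of 1349 of *Spp1* (osteopontin). Without the cells of 10 or more marker UMIs *Bglap* was 5.46-fold lower, and the ratio of *Col11a2* turned from 0.249 to 1.35.

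The other 18 leading genes on the lower side were less concentrated, with 1.26% (*Gstm1*) to 25.3% (*Sult1e1*) of their 1 dpi UMIs in the 10 richest cells. *Gstm1* (a glutathione transferase, chromosome 3, 108012255 to 108017973) had 719.6 CPM at 1 dpi and 201 at 3 dpi, 3.57-fold lower (3.5 to 3.65), and was carried by 72.2% and 41.8% of thinned cells (91.1% and 66.4% unthinned, 13.9% and 9.84% of thinned *Ptprc* cells). *Sult1e1* (estrogen sulfotransferase) had 56.4 and 13.5 CPM, 4.17-fold lower, and *Krtdap* 61.5 and 8.91, 6.89-fold lower. *Alpl* (tissue-nonspecific alkaline phosphatase, needed for mineralization) had 45.8 and 11.4 CPM, 4.02-fold lower, and stood at 251 CPM in 7 dpi cells.

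Among secreted signals and basement membrane genes, *Bmp2* had 127 and 37.4 CPM (3.41-fold lower, 3.25 to 3.58) and *Bmp7* 11.5 and 3.37 (3.41-fold, 2.896 to 4.03). The collagen IV chains *Col4a3* and *Col4a4* had 19.6 and 61.6 CPM at 1 dpi and 4.49 and 17.5 at 3 dpi (4.36- and 3.53-fold lower), and the laminin *Lamc3* was 3.63-fold lower. Transcriptional regulators here were *Hlf* (a clock-linked factor, 54.3 and 15.6 CPM, 3.49-fold), *Tbx5* (a forelimb and heart factor, 3.59-fold) and *Hr* (3.58-fold). The rest, *Atp6v0e2*, *Kcna2* (a potassium channel), *Tubb4a* (a tubulin), *Lrrtm3*, *Pde11a* (a phosphodiesterase) and *Hunk* (a kinase), were 3.32- to 4.35-fold lower.

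Lower genes that stood less than 3-fold above the *Ptprc* cells were *Slfn4* (11.2 to 0.835 CPM, 13.4-fold lower), *Oas3* (9.66-fold), *Ighg2c* (5.04-fold), *Cmpk2* (4.64-fold), *Ifit3* (4.61-fold), *Fam78a* (4.47-fold), *Cd274* (PD-L1, 4.38-fold), *Lilr4b* (4.33-fold), *Gdf15* (4.05-fold) and *Col11a2* (4.01-fold). In cells with a *Ptprc* UMI *Slfn4* was at 149 and 18.7 CPM at 1 and 3 dpi, *Lilr4b* at 274 and 104, and the immunoglobulin gene *Ighg2c* at 225 and 91.3. How much of these small amounts in mesenchymal cells came from transcripts of leukocytes in the same droplets was not tested. *Col11a2* had most of its 1 dpi UMIs in the few cells with osteoblast genes given above.

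**Figure D3:**
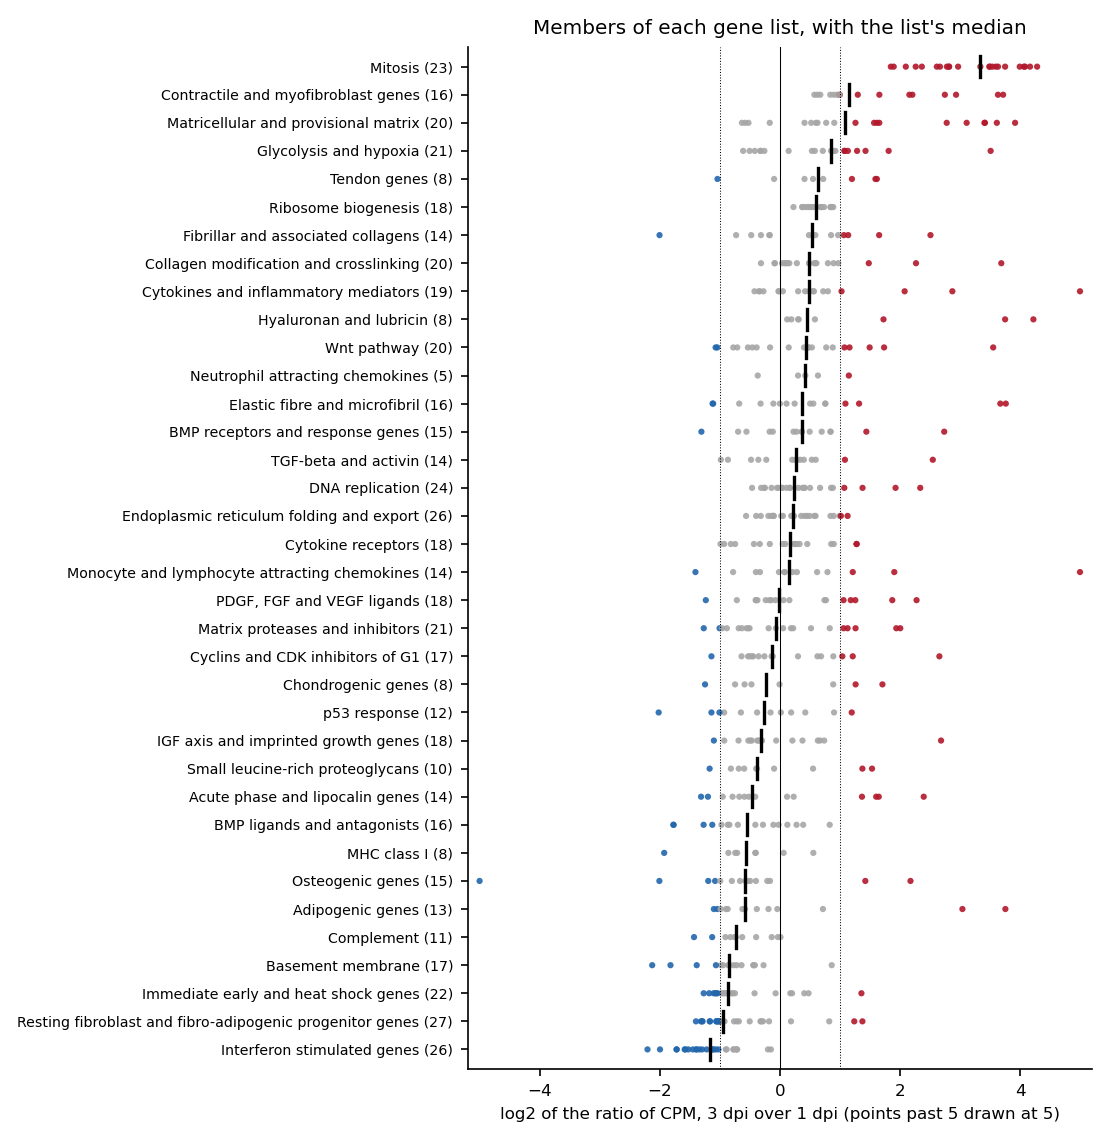
Log2 of the ratio of CPM (3 dpi over 1 dpi) for the tested members of 36 gene lists, 1 point per gene, with the list's median as a black bar and the number of tested members in parentheses. Red points were at least 2-fold higher and blue points at least 2-fold lower, the dotted lines mark 2-fold, and points past 5 are drawn at 5. The mitosis list stands apart at the top, with all its points to the right of 2-fold.

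Mitosis genes were the group that differed most. All 23 members were at least 2-fold higher at 3 dpi, with a median log2 ratio of 3.34 against -0.07 for all genes tested, and their summed level was 144 CPM at 1 dpi and 1200.5 at 3 dpi. *Top2a* (topoisomerase, 24.9 to 107 CPM), *Mki67* (14.2 to 100.4), *Birc5* (survivin, 9.44 to 109.8) and *Ube2c* (8.68 to 105), an enzyme of the anaphase-promoting complex pathway, were the most abundant at 3 dpi. The centromeric histone *Cenpa* had the largest ratio (19.5-fold, 16.4 to 23.4) and *Nusap1* the smallest (3.603-fold). Cells with at least 2 UMIs of these genes after thinning made up 2.07% (74 of 3583) at 1 dpi and 16.5% (951 of 5774) at 3 dpi, against 2.003% in Uninjured and 28.5% in 7 dpi cells. Without those cells the median log2 ratio of the list was 1.94. That removal was incomplete, since cells too shallow to thin and cells with 1 mitosis UMI after thinning stayed in. Among thinned cells below the limit the list summed to 32.06 CPM at 1 dpi and 67.8 at 3 dpi.

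The promoters of these genes are shown because the members of this list differed in the same direction. RefSeq windows of 300 bases (250 before to 50 after the transcription start, build GRCm38.p6, the build of mm10) matched 19 of the 23 genes. The cell cycle homology region (CHR), searched as TTTGAA on either strand, was in 14 of these 19 genes (73.7%), against 20.2% of the 27025 genes with a window. A CCAAT box, searched as CCAAT on either strand, was in 17 genes, against 41.1% of all, and both were in 14, against 7.97%. In the windows shown the motifs do not overlap. A match describes the sequence and not a bound site. The windows of *Cenpa* (chr5:30666636-30666935, plus strand) and *Cdc20* (chr4:118437294-118437593, minus strand), the members with the largest ratios among those with a single window and both motifs, are given 5′ to 3′ with the motifs in capitals.
Cenpa: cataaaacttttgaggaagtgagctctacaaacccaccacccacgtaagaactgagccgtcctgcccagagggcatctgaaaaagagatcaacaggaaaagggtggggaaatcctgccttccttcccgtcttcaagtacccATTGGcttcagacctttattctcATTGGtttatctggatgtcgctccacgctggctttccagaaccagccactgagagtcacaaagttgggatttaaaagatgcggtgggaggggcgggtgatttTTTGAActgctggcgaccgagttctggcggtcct
Cdc20: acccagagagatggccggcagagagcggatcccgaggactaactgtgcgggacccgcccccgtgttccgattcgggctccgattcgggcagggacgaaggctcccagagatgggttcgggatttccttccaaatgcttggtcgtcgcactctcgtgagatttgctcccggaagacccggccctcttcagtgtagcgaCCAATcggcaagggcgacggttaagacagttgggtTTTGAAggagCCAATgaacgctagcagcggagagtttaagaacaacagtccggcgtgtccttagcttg

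The genes of DNA replication did not follow to the same extent. Of 24 tested, 4 were at least 2-fold higher and none at least 2-fold lower, with a median log2 ratio of 0.24. That median turned to -0.11, with 2 genes higher, without the cells of at least 2 mitosis UMIs, and was 1.10 in cells with at least 1% of UMIs from the selection genes. The nucleotide synthesis genes *Tk1* (9.35 to 47.3 CPM), *Rrm2* (13.2 to 50.04) and *Tyms* (21.5 to 55.95) and the helicase cofactor *Cdc45* (6.03 to 12.7) were the higher genes. By contrast, the sliding clamp *Pcna* had 145 and 106 CPM, and the helicase subunits *Mcm2* to *Mcm7* had log2 ratios between -0.26 and 0.17. In Uninjured cells the list summed to 267 CPM, against 675 at 1 dpi and 818 at 3 dpi. Replication transcripts thus already stood above Uninjured at 1 dpi, when the mitosis list was at 144 CPM against 363 in Uninjured cells. The share of cells did not follow that lower sum. After thinning, a mitosis UMI was in 8.345% of cells at 1 dpi and in 5.483% of Uninjured cells. Other cell selections were not applied to Uninjured cells, so the comparisons of 1 dpi with Uninjured rest on the main selection alone.

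Regulators of entry into the cycle differed among themselves. Of 17 cyclins, kinases and inhibitors, 3 were at least 2-fold higher, *Cdk6* (2.68 to 16.9 CPM), *Ccne1* (5.14 to 11.9) and *Cdkn2c* (7.98 to 16.4), and the inhibitor *Cdkn1a* (p21) was lower, with 288 and 131 CPM. Of 12 p53 response genes, which include *Cdkn1a*, 1 was at least 2-fold higher (*Phlda3*, 27.6 to 63.2) and 3 lower, with *Gdf15* at 8.21 and 2.03 CPM. All 18 ribosome biogenesis genes had log2 ratios above 0 (median 0.60), without any past 2-fold, led by *Nolc1* (56.8 to 105) and *Npm1* (nucleophosmin, 746 to 1340.2). Of 81 cytosolic ribosomal protein genes 67 were above 0 (median 0.41), also without any past 2-fold.

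Matricellular and provisional matrix genes were higher at 3 dpi. Of 20 tested, 10 were at least 2-fold higher and none lower, with a median log2 ratio of 1.08. *Sparc* was the most abundant (4801 to 9002 CPM, 1.88-fold) and *Fn1* (fibronectin) the next (961 to 2303, 2.396-fold). *Tnc* (tenascin-C, an injury-induced matrix protein) had 30.9 and 267 CPM, 8.65-fold higher (8.14 to 9.198), and *Thbs2* and *Thbs4* (thrombospondins) had 94.3 to 279.9 and 256 to 786. The members below 0 were 4 genes: *Ccn3* (log2 -0.63), *Sparcl1* (-0.58), *Spp1* (-0.52) and *Ccn1* (-0.17). A large part of the *Spp1* UMIs at 1 dpi lay in the few cells with osteoblast genes given above.

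Collagen groups differed in direction. Of 14 fibrillar and associated collagens outside the selection, 4 were at least 2-fold higher: *Col12a1*, *Col8a1* (98.4 to 309.8 CPM), *Col7a1* (0.447 to 0.984) and *Col5a2* (608 to 1273). The *Col11a2* chain was lower, with most of its 1 dpi UMIs in the few cells with osteoblast genes given above. In this list 6 of 14 were below 0, and the mean over cells left 2 higher with a median of 0.15. The collagen VI chains *Col6a1*, *Col6a2* and *Col6a3* had log2 ratios of -0.17, -0.31 and -0.17. Basement membrane genes went the other way, with 16 of 17 below 0, 4 at least 2-fold lower (2 as the mean over cells) and a median of -0.84. *Col4a1* had 1204 and 627 CPM, *Nid1* (nidogen) 1068 and 591, *Lamc1* 501 and 239.5, and *Col15a1* 422 and 162.

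The enzymes that modify and crosslink collagen held 3 genes of 20 at least 2-fold higher, *P4ha3*, *Lox* and *Plod2* (lysyl hydroxylase, 100.2 to 280 CPM), and none lower (median 0.49). The abundant collagen chaperone *Serpinh1* had 1761 and 1806 CPM. Of 16 elastic fibre genes 4 were higher, *Fbn2*, *Ltbp2*, *Mfap4* and *Emilin1*, and 2 lower, *Efemp1* (319 to 147) and *Ltbp4* (303 to 140.3), while elastin itself (*Eln*) had 173 and 173 CPM. Among 10 small leucine-rich proteoglycans *Bgn* (biglycan, 821 to 2382) and *Aspn* (267 to 692) were higher and *Omd* (22.4 to 9.97) lower. Of 21 proteases and inhibitors 5 were higher, with *Timp1* (507 to 1216) and *Adam12* (28.1 to 108) among them, and 2 lower, *Timp3* (502 to 209) and *Plau* (urokinase, 170.2 to 84.9). As the mean over cells of CPM, no member of the elastic fibre, proteoglycan and protease lists was at least 2-fold lower. Of all 13252 genes tested only 222 were lower in that setting. In the protease list 2 genes were then at least 2-fold higher. The hyaluronan receptors *Cd44* (132 to 438) and *Hmmr*, the latter also a mitosis gene, and the hyaluronidase *Cemip* (0.195 to 3.65) were the 3 higher genes of 8 in that list, and the lubricin gene *Prg4* had 1059.7 and 1318 CPM.

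Contractile genes were higher as a group, with 16 of 16 above 0, 9 at least 2-fold higher and a median log2 ratio of 1.15. The actin *Actb* was the most abundant (3319 to 5299 CPM). *Acta2* had the largest ratio, and *Tagln* (transgelin, 15.5 to 104), *Actn1* (alpha-actinin, 38.9 to 174) and *Tpm1* (78.7 to 194) were also past 2-fold. *Acta2* and *Tagln* at 1 dpi rested on few cells: 10 cells held 56.5% and 46.6% of their UMIs, against 8.81% and 11.9% at 3 dpi. Smooth muscle cells share these genes, and the 8 markers of pericytes and smooth muscle summed to 43.8 CPM at 1 dpi and 38.3 at 3 dpi. *Cspg4* alone made up 30.3 and 21.1 of these sums, so they say little about the other markers. Without the cells of 10 or more marker UMIs the *Acta2* ratio was 28.8.

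Genes of resting fibroblasts and fibro-adipogenic progenitors were lower as a group. Of 27 tested, 12 were at least 2-fold lower and 2 higher, with a median log2 ratio of -0.94. As the mean over cells of CPM, 1 was lower (median -0.40), and without the cells of at least 2 mitosis UMIs 2 were (median -0.55). *Gsn* (gelsolin) was the most abundant (13840 to 5257 CPM, 2.63-fold lower, 2.62 to 2.64) and had the largest difference. The progenitor surface genes *Ly6a* (Sca-1) and *Cd34* had 3650.4 to 1755 and 878 to 440.5 CPM. *Pi16* and *Dpp4*, markers of adventitial fibroblasts, had 734 to 356 and 112 to 50.2, and *Smoc2* and *Hsd11b1*, of interstitial ones, 1492 to 718 and 319 to 130.3. The homeobox genes *Meox1* (18.4 to 43.5) and *Prrx2* (34.3 to 89.1) were the members at least 2-fold higher.

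Interferon stimulated genes were lower throughout. All 26 tested had log2 ratios below 0, 17 were at least 2-fold lower, and the median was -1.17. As the mean over cells of CPM 12 were at least 2-fold lower (median -0.98). Without the cells of at least 2 mitosis UMIs 12 were (median -0.96). The median was -0.88 without cells holding 2 or more marker UMIs of other cells. The summed level of the list was 1630.4 CPM in Uninjured, 4062 at 1 dpi, 1660.1 at 3 dpi and 799.9 at 7 dpi, so that 1 dpi was the highest of the 4 libraries. *Ifi27l2a* was the most abundant (1168 to 446 CPM), *Bst2* (tetherin, an antiviral membrane protein) the next (769 to 258), and *Ifit3* (an antiviral RNA-binding protein) had the largest difference (109 to 23.6, 4.61-fold lower, 4.34 to 4.89). The transcription factors *Irf7* (182 to 55.4), *Irf9* (79.7 to 38.1) and *Stat2* (79.6 to 43.1) were all lower at 3 dpi. In the *Ptprc* cells *Ifit3* had 106 and 36.8 CPM and *Bst2* 566 and 289.9, so these transcripts were also lower there.

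The interferon-stimulated response element (ISRE), searched on either strand as GAAA, any 2 bases and GAAA again, was in the windows of 12 of 22 matched genes of this list (54.5%), against 3.99% of all genes with a window. As for the mitosis list, this share follows from the choice of genes and not from their levels. The windows of *Ifit3* (chr19:34583279-34583578, plus strand), *Gbp2* (chr3:142620413-142620712, plus strand) and *Bst2* (chr8:71537423-71537722, minus strand), the members with the largest differences that have a single window with the element (*Ifit3b*, a close copy of *Ifit3*, left out), are given with it in capitals.
Ifit3: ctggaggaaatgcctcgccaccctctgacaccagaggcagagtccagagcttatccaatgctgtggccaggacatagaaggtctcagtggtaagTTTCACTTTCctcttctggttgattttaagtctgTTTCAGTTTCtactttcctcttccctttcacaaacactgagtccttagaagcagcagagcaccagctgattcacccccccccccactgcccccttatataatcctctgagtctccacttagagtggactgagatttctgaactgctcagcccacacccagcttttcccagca
Gbp2: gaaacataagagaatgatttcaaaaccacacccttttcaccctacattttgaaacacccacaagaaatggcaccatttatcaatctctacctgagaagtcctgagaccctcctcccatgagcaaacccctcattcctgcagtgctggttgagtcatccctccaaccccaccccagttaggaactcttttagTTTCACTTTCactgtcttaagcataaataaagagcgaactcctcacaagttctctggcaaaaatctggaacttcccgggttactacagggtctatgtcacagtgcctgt
Bst2: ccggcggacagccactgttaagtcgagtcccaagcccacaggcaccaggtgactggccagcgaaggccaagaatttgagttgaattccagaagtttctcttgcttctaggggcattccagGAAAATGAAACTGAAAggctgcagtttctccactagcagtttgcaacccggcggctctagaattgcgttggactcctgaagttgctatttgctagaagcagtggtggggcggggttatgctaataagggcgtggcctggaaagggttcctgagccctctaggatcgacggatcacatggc
The element reads on the opposite strand in *Ifit3* and *Gbp2*. *Ifit3* holds 2 elements, and the 2 in *Bst2* overlap.

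Other immune genes of these cells differed less evenly. Of 8 MHC class I genes only *H2-T23* was past 2-fold (169 to 44.4 CPM, 3.798-fold lower), and *B2m* had 1140 and 681. Among 11 complement genes 10 were below 0 and 2 past 2-fold, *Cd55* (245 to 91.1) and *C7* (53.2 to 24.4), and *C3*, the most abundant, had 1708 and 912. Immediate early and heat shock genes had a median of -0.86, with 6 of 22 at least 2-fold lower, among them *Klf4* (1149 to 477), *Egr1* (3187 to 1552) and *Fosb* (1614 to 766), and *Ier3* higher (214 to 548). None was at least 2-fold lower either as the mean over cells (median -0.52) or without the cells of at least 2 mitosis UMIs (median -0.64). Cell dissociation also induces these genes, and its part in the result was not tested. Acute phase genes held both directions: *Lcn2* (123 to 49.6) and *Saa3* (110.2 to 48.1) were lower and *Slc39a14* (76.02 to 196), *Hp* (9.02 to 28.3), *Saa2* and *Serpina3g* higher.

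Chemokines and cytokines held genes in both directions. Of 14 chemokines for monocytes and lymphocytes, *Ccl11* (eotaxin) was lower (710.4 to 268 CPM, 2.65-fold), *Ccl5* (8.21 to 19.1), *Cx3cl1* (2.26 to 8.48) and *Ccl20* higher, and *Cxcl14*, *Ccl2* and *Ccl7* had 2212 to 1759.9, 649.8 to 1127 and 562 to 865. *Ccl20* had 2 UMIs at 1 dpi and 1349 at 3 dpi, a ratio of 360.1 (99.49 to 2976), with 38.03% of the 3 dpi UMIs in 10 cells. Of 5 neutrophil attracting chemokines *Cxcl2* was past 2-fold (91.4 to 203), and *Cxcl1* and *Cxcl5* had 672 to 902 and 235 to 289.7. Their median log2 ratio, 0.42, depended on the cell selection. It was 1.90 with a selection share of at least 1% and 0.20 with at least 0.25%. Without cells holding 2 or more marker UMIs of other cells it was 1.66. Among 19 cytokines and mediators *Ptx3* (a pentraxin, 258 to 526), *Il11* (1.899 to 13.9), *Tnfsf11* (RANKL, 1.01 to 4.25) and *Nos2* (0.0558 to 2.22, with 10 cells holding 53.02% of its UMIs at 3 dpi) were higher, while *Il6* had 147 and 197 CPM and *Il33* 128 and 179. Of 18 cytokine receptors *Il4ra* (57.6 to 139.7) and *Tnfrsf12a* (59.4 to 144) were past 2-fold.

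The skeletal lists were mixed at this time. Of 15 osteogenic genes 2 were at least 2-fold higher, *Runx2* (the master factor of osteoblasts, 8.74 to 39.5 CPM, 4.52-fold, 4.02 to 5.10) and *Sox4* (38.5 to 103), and 4 lower, *Bglap*, *Alpl*, *Msx1* (68.7 to 30.1) and *Gli1* (4.22 to 1.997). Only 8 chondrogenic genes reached 50 UMIs. *Sox9*, the chondrocyte factor, had 35.9 and 35.8 CPM (ratio 0.997, 0.931 to 1.07), the cartilage matrix genes *Comp* 25.9 and 62.2 and *Acan* (aggrecan) 0.447 and 1.46, and *Col9a2* 1.73 and 0.7304. Among 8 tendon genes *Thbs4*, *Scx* (scleraxis, 1.68 to 5.05) and *Mkx* (1.09 to 2.504) were higher and *Egr1* lower. Of 13 adipogenic genes *Cebpb* (376 to 183) and *Dlk1* (8.71 to 4.07) were lower and *Fabp4* (2.62 to 21.6) and *Plin1* (0.0838 to 1.13) higher. The 1 dpi level of *Plin1* rests on very few UMIs. As the mean over cells of CPM, no tendon or adipogenic gene was at least 2-fold lower, where only 222 of all 13252 genes tested were.

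Among growth factor pathways, BMP ligands and antagonists had 4 of 16 genes at least 2-fold lower (*Bmp7*, *Bmp2*, *Chrd*, 23.3 to 9.67 CPM, and *Bmp5*, 36.9 to 16.9), none higher, and a median of -0.55 (2 lower as the mean over cells and 2 without the cells of at least 2 mitosis UMIs). In cells of at least 8000 UMIs 6 of the 16 were at least 2-fold lower (median -0.915). In cells under 8000 UMIs 0 were lower and 1 was higher (median -0.066). *Bmp2* was 1.81-fold lower in cells of 2000 to 3999 UMIs and 4.70-fold at 8000 to 15999. The summed level of this list went the other way, with 2699 CPM at 1 dpi and 3647 at 3 dpi. Of its tested members 4 were above 0 and 12 below, and ligands and antagonists are counted together. *Bmp4* had 97.9 and 54.7 CPM, and whether its transcripts came from the transgene or the native gene cannot be told apart in these counts. The BMP response genes *Id1* and *Id3* had 15.6 to 27.9 and 306 to 549.5, and the receptors *Bmpr1b* (0.447 to 2.98) and *Acvr2b* (3.57 to 1.45) were past 2-fold in opposite directions. In the TGF-beta list *Inhba*, the activin A subunit, was higher (18.04 to 106, 5.85-fold, 5.397 to 6.35), as was *Tgfb3* (30.9 to 65.5).

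Of 20 Wnt genes 5 were higher, among them the secreted inhibitors *Sfrp1* (83.8 to 279 CPM) and *Sfrp2* (133 to 279.9) and the response gene *Axin2* (1.56 to 4.41), and 2 lower, the ligands *Wnt5a* (62.9 to 29.99) and *Wnt10b* (11.3 to 5.47). Of 18 genes of the IGF axis and imprinted growth genes *H19* was higher (11.1 to 71.3) and *Dlk1* lower, and *Igf1* had 331 and 430.4. The PDGF, FGF and VEGF list had 5 of 18 higher, with *Pdgfa* (5.36 to 26.0) and *Hgf* (2.68 to 9.82) leading, and *Fgf10* lower (17.9 to 7.62). As the mean over cells, no member of the Wnt, IGF, and PDGF, FGF and VEGF lists was at least 2-fold lower. In that setting only 222 of all 13252 genes tested were. Of the last list 2 genes were then higher. Glycolysis and hypoxia genes had 7 of 21 at least 2-fold higher, none lower, and a median of 0.85 (4 higher as the mean over cells and 4 without the cells of at least 2 mitosis UMIs): the lactate exporter *Slc16a3* had 2.904 and 33.1 CPM, *Eno1* 74.04 and 199, *Ldha* 263 and 577, and *Hif1a* 134 and 326. The 26 genes of endoplasmic reticulum folding and export had a median of 0.22 with 2 past 2-fold (*Ssr4*, 289 to 633, and *Ssr2*), and the 91 nuclear genes of oxidative phosphorylation a median of 0.12.

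**Figure D4:**
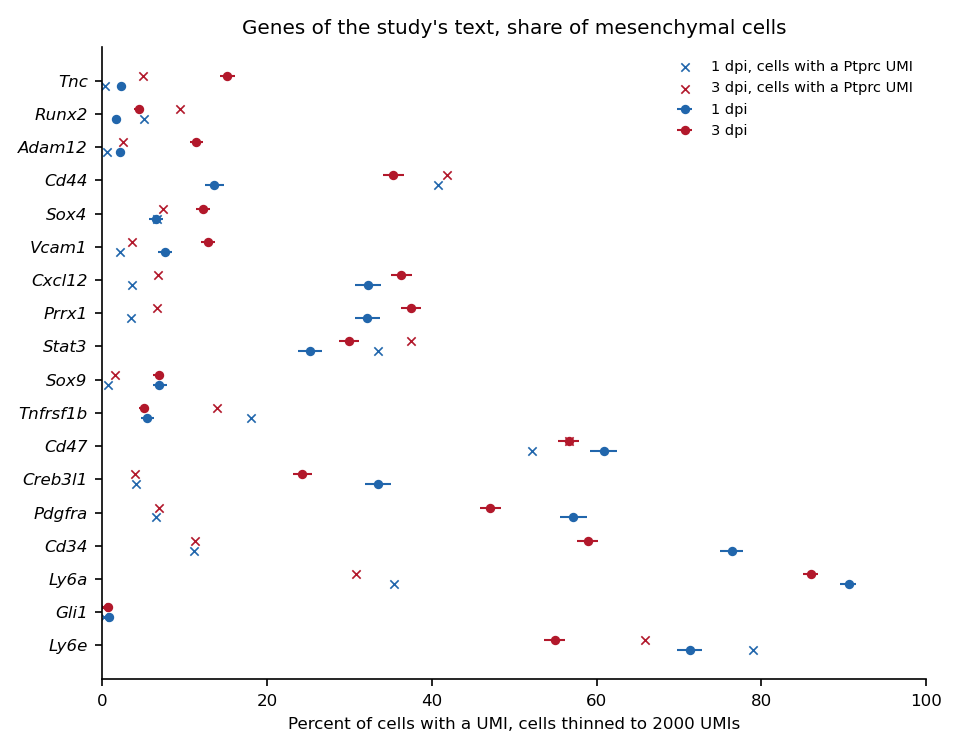
Percent of mesenchymal cells with at least 1 UMI, after thinning to 2000 UMIs, for 18 genes that the study discusses (filled points, bars for the exact 95% binomial interval), with the share in cells with a *Ptprc* UMI as crosses. *Tnc*, *Adam12* and *Cd44* were found in more mesenchymal cells at 3 dpi and *Cd34*, *Pdgfra* and *Ly6e* in fewer, and the *Ptprc* cells had more *Runx2* than the mesenchymal cells.

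The genes that the study uses to follow these cells are shown in the plot of shares. *Tnc* was carried by 2.23% of thinned cells at 1 dpi and 15.2% at 3 dpi (4.77% and 27.1% unthinned), against 0.358% and 4.88% of *Ptprc* cells. *Adam12* was carried by 2.205% and 11.4% (10.6% and 31.8% unthinned), against 0.528% and 2.53% of *Ptprc* cells. *Pdgfra*, the receptor that marks fibro-adipogenic progenitors, was carried by 57.2% and 47.1% (83.8% and 72.8% unthinned, 6.46% and 6.83% of *Ptprc* cells) and *Cd34* by 76.4% and 58.95% (91.9% and 81.7%, against 11.1% and 11.2%). *Cd44* went from 13.6% to 35.3% (35.9% and 53.98%), with 40.7% and 41.9% in *Ptprc* cells, which carry it abundantly. *Runx2* was carried by 1.62% and 4.399% (5.94% and 16.2%), so its share was higher at 3 dpi, as was its CPM (4.52-fold). In the *Ptprc* cells, another population that carries it, the shares were 5.09% and 9.45%. *Prrx1* (log2 0.19), *Cxcl12* (0.21), *Stat3* (0.16), *Cd47* (-0.41), *Vcam1* (0.56), *Tnfrsf1b* (-0.33) and *Creb3l1* (-0.66) stayed within 2-fold.

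The differences depended on the UMI total of the cell. Some gene groups held at every depth, some were seen mainly in deep cells, and others lay between. Cells with at least 8000 UMIs, a limit chosen after the data were seen, made up 47.7% of cells and 73.5% of UMIs at 1 dpi and 37.4% and 76.6% at 3 dpi, so that summed levels mostly describe deep cells. The deep cells were not matched in depth between the libraries. Of them, 420 of 1863 at 1 dpi and 1324 of 2594 at 3 dpi held 16000 UMIs or more, so their ratios mix time point and depth. Of all genes tested, 7.95% were at least 2-fold higher and 10.6% lower in the deep cells, and 4.85% and 1.65% in the others, counted over the same 13252 genes. *Postn* was 11.97-fold higher in deep cells and 11.6-fold in the others, *Chl1* 39.7- and 25.9-fold, and *Lox* 5.03- and 3.28-fold. All 23 mitosis genes were at least 2-fold higher in both sets of cells. Interferon stimulated genes were lower in both, with 17 of 26 past 2-fold in deep and 11 in shallower cells, and matricellular genes higher in both, with 10 and 10 of 20. The ratio of the summed matricellular list still rose with depth, from 1.25-fold under 2000 UMIs to 2.29-fold at 16000 or more.

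Resting fibroblast genes were different. In deep cells 17 of 27 were at least 2-fold lower (median -1.21), but in cells under 8000 UMIs 0 were, with a median of -0.10. *Pi16* had 692 and 199.7 CPM in deep cells at 1 and 3 dpi and 851 and 866 in the others, and *Smoc2* 1351 and 447 against 1884 and 1607. Basement membrane genes (10 of 17 lower in deep cells, 0 in the others) and complement genes (medians -1.10 and 0.12) followed the same pattern. So did BMP ligands and antagonists (6 of 16 lower in deep cells, 0 in the others). Immediate early genes (13 and 1 of 22 lower) and contractile genes (11 and 3 of 16 higher) followed it only in part. The summed immediate early list had a ratio of 0.77 in cells of 4000 to 7999 UMIs, 0.52 at 8000 to 15999 and 0.78 at 16000 or more. The summed contractile list was higher at 3 dpi in each depth group, from 1.08-fold under 2000 UMIs to 1.75-fold at 8000 to 15999. *Gstm1* was 6.32-fold lower in deep cells and 1.83-fold in the others. *Acta2* was 37.7-fold higher in deep cells, with a ratio of 0.9796 in the others. At 1 dpi *Acta2* had 81 UMIs in cells of 2000 to 3999 UMIs and 326 in those of 4000 to 7999. It had 117 at 8000 to 15999 and 79 at 16000 or more. Most of its 1 dpi UMIs lay in few cells, as given above. How far those cells set the ratio of 0.9796 was not tested.

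**Figure D5:**
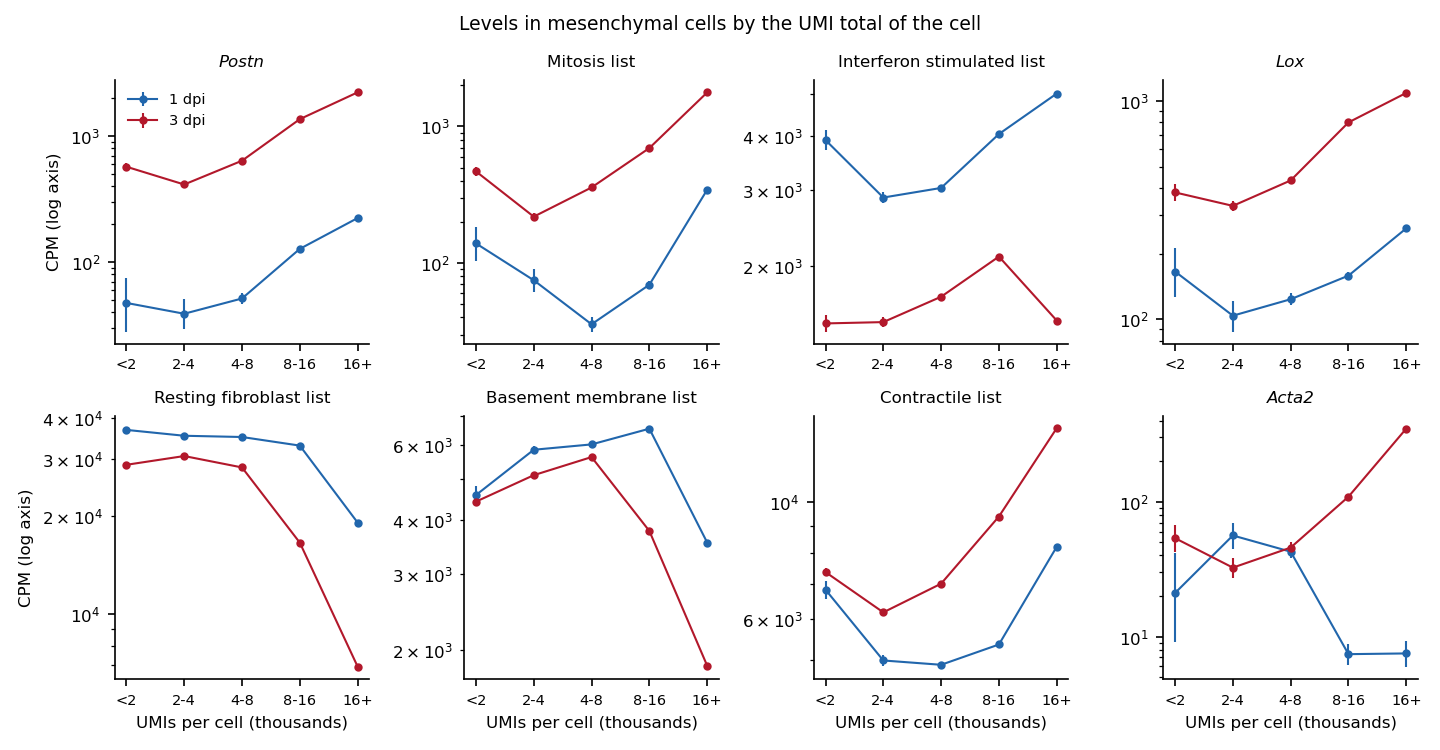
CPM (log axis) of 3 genes and the summed CPM of 5 gene lists in mesenchymal cells grouped by the UMI total of the cell (in units of 1000), at 1 dpi in blue and 3 dpi in red, with bars for the 95% counting interval. *Postn*, *Lox* and the mitosis list were higher and the interferon stimulated list lower at 3 dpi in each of the 5 groups, whereas the resting fibroblast and basement membrane lists parted mainly above 8000 UMIs.

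Over 5 depth groups, *Postn* was between 9.97-fold (16000 UMIs or more) and 12.4-fold (4000 to 7999) higher at 3 dpi in each. The resting list summed to 35387 CPM at 1 dpi and 30657 at 3 dpi in cells of 2000 to 3999 UMIs, and to 19149 and 6912 in cells of 16000 or more, which held 420 and 1324 cells. The deepest cells were thus lowest in it in both libraries. The interferon stimulated list summed to 2882 and 1486 CPM in cells of 2000 to 3999 UMIs and to 5009.6 and 1498 in the deepest. What sets the UMI total of a cell, and its part in these differences, was not tested.

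Within 3 dpi, the 951 cells with at least 2 UMIs of the mitosis list and the 4823 with fewer, all thinned to 2000 UMIs, differed in several of these lists. The split is not one of presence, since the latter cells still held 67.8 CPM of the mitosis list. The matricellular list was at 17545 CPM in the former and 14423 in the latter, the contractile list at 15524 and 7323, and the resting list at 7408 and 24782. *Postn* had 2019 and 902 CPM, *Acta2* 379 and 64.6, *Tnn* 124 and 20.9, and *Chl1* 85.7 and 52.98, whereas *Ecrg4* (29.4 and 45.8) and *Gstm1* (74.7 and 433) were lower in the cells with at least 2 mitosis UMIs. The interferon stimulated list had 1457 and 1764 CPM. Among 3 dpi cells deep enough to thin, the mitosis list itself rose with depth, from 219 CPM in cells of 2000 to 3999 UMIs to 1774 in those of 16000 or more. Cells under 2000 UMIs, which were not thinned, had 469 CPM. Thinning evens the counts but not the original depth of the cells compared, so mitosis and depth cannot be told apart here. These cells come from 1 library, and with the cells of at least 2 mitosis UMIs after thinning left out of both time points (cells with 1, and those too shallow to thin, stayed in) *Postn* was still 11.4-fold, *Acta2* 7.31-fold and *Chl1* 42.8-fold higher at 3 dpi.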

How the data were processed

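Per the labels and the submitters' processing notes, the authors sequenced 4 10x libraries, processed the reads with Cell Ranger 5.0.0 against mm10, and used Seurat 3.1.1. The deposited files hold whole-number UMI counts per gene and barcode, not normalized, and whether a down-sampling named in the methods precedes them is not given in the sources used here. Gene positions are from GENCODE M21 (GRCm38), promoter windows from RefSeq. The members and the gene lists were chosen with earlier results of these data known.

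Counts were read with Python 3.11.15 (scipy 1.17.1), and UMIs of the selected cells were summed per library. The 32285 genes gave 13252 tested ones. Levels are CPM with exact Poisson intervals, ratios have exact conditional binomial intervals, a count of 0 was set to 3 UMIs in a ratio, and shares have Clopper-Pearson intervals. Intervals cover counting error only. With 1 library per time point no test was made. The ratio and interval were tested on simulated Poisson counts per gene, a setting that leaves out UMIs clustered in few cells. Cells were thinned to 2000 UMIs where shares were compared. Doublets were left in, and leaving out the 7.5% of cells with the highest Scrublet scores was an alternative, among 18 that also varied scaling (TMM, edgeR 4.0.16), the cell selection and the UMI minimum.

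Genes were named by a rule: the 20 largest ratios in each direction with at least 200 UMIs in the higher and 10 in the lower library and at least 3-fold the level of cells with a *Ptprc* UMI, up to 10 more failing that last condition, in each list the most abundant member, the largest ratio each way and up to 4 more by UMIs, and the genes the study discusses. Predicted genes were left out. Other list members named in the text, and those against the *Ptprc* cells with less collagen, were chosen after their values were seen. Some genes are not reported here by name.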

Additional observations from a re-analysis of the deposited data

How the results depend on the processing

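Limits: each time point is 1 library of 3 pooled muscles, so no alternative measures biological spread. No paired analysis was possible because each group has 1 sample and the result comes from no test. The 935 higher and 829 lower genes were 745 and 222 as the mean over cells of CPM, 429 and 146 in cells thinned to 2000 UMIs, 645 and 417 without cycling cells (at least 2 mitosis UMIs after thinning), 710 and 329 without cells holding 2 or more marker UMIs of other cells, 1496 and 1310 with at least 10 UMIs, and 459 and 351 with at least 500. In settings chosen after seeing the data they were 996 and 1246 in cells of at least 8000 UMIs and 307 and 88 in cells under 8000, here over the 12600 and 11149 genes with at least 50 UMIs in those cells (over all 13252 genes, 1053 and 1410, and 643 and 219). The median log2 ratio of all genes tested, -0.07, was -0.0139 with TMM scaling, 0 by construction when centred on the median gene, -0.0002 without selection, mitochondrial and ribosomal protein genes in the total, -0.0299 as the mean over cells, -0.0248 thinned, -0.0585 with UMIs and genes within 2 SD, -0.0307 without cells with other markers, -0.0062 in cells under 8000 UMIs and -0.0260 with at least 500 UMIs. The other settings gave counts within 1.5 times of 935 and 829.

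In cells under 8000 UMIs the list medians (log2) that turned were complement (0.12), acute phase (-0.46 to 0.12), small leucine-rich proteoglycans (-0.39 to 0.14), the IGF axis (-0.31 to 0.03) and oxidative phosphorylation (0.12 to -0.0093). DNA replication turned to -0.11 without cycling cells. The medians of the protease, chondrogenic and PDGF, FGF and VEGF lists, between -0.24 and -0.0050, turned in 9, 2 and 8 settings. In cells under 8000 UMIs the log2 ratios of *Acta2*, *Cxcl2*, *Nos2*, *Mmp9*, *Hbb-bs* and *Col11a2* were -0.0297, -0.32, -1.31, -0.0434, -0.58 and 0.29. *Hbb-bs* was -0.64 with a selection share of at least 1%, -0.93 without cells holding 2 or more marker UMIs and -1.0007 without those holding 10 or more. *Col11a2* was 0.41 with the highest doublet scores removed, 0.76 and 0.44 in the latter 2 settings. *Nusap1* was -0.60 without cycling cells. Those cells were chosen by their mitosis UMIs, and cells with 1 stayed in. The cause of the other turns was not tested. Of 150 named genes past 2-fold, 40 were no longer past it as the mean over cells, 38 thinned, 26 without cycling cells, 30 without cells with other markers and 66 in cells under 8000 UMIs, against 1 to 12 in the others. In the cyclin, complement, and monocyte and lymphocyte chemokine lists no member was at least 2-fold lower as the mean over cells, a setting in which 222 of all 13252 genes were.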
